A study of Mus musculus with 4 samples.

Results

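The genes described here are known from cytotoxic lymphocytes and were measured in group 2 innate lymphoid cells (ILC2s) from the mouse large intestine. They encode the granzymes Gzma, Gzmb, Gzmc, Gzmd, Gzme and Gzmf, the pore-forming protein perforin (Prf1) and the granule proteoglycan serglycin (Srgn). The last, Serpinb9, encodes a granzyme B inhibitor of the cytosol. All 9 genes were chosen by name and were found among the 27179 genes of the count table. ILC2s sorted from wild-type C57BL/6 mice (C57BL/6J in the methods), aged 6 to 8 weeks in 1 passage of the methods and 6 to 14 weeks in another, had been expanded for 5 days in the interleukins IL-33, IL-25, IL-7 and IL-2 at 10 ng/mL each. They then received vehicle or 100 μM deoxycholic acid (DCA), a bile acid that gut bacteria make from cholic acid, for 16 hours per the design text and 24 hours per the methods. RNA-Seq was performed on 2 vehicle and 2 DCA libraries, and the comparison asks which transcripts of cultured ILC2s changed under DCA. The sort took CD45.2+ cells that were CD127+ and KLRG1+ and lacked the lineage markers, CD3, CD5, CD11b and FcεRIα among them. The labels do not say whether the 2 libraries of a treatment came from separate mice or cultures, so p-values measure only the spread between these libraries, which may be technical.

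Cytotoxic lymphocytes store granzymes, a family of serine proteases, in secretory granules, where serglycin holds them on its negatively charged sugar chains. On release, perforin opens the membrane of the target cell and granzymes enter it, where granzyme B cuts after aspartate and granzyme A after lysine or arginine. Serpinb9 traps granzyme B that leaks into the cytosol of the cell that made it. These granules are best known from NK cells and CD8+ T cells, while ILC2s are known for type 2 cytokines such as IL-5 and IL-13.

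Total counts were 26564059 to 35838342 in 3 libraries and 244165712 in DCA replicate 2. Levels are given in CPM, a gene's counts scaled to the same total for every library with edgeR's TMM factors. The 12 ILC2 marker genes all passed the filter, a mean of 1 CPM or more, with Gata3, the transcription factor that defines these cells, at 840 and 657 CPM in the vehicle libraries, replicate 1 first, against 600 and 824 CPM in the DCA libraries. Of the 11 NK cell and ILC1 markers, 8 had no count in any library, Ncr1, Klrb1c and Klrd1 among them. The list summed to 0.383 and 0 CPM under vehicle and 0 and 2.82 CPM under DCA. The 2.82 CPM of DCA replicate 2 was nearly all Cd160, at 2.78 CPM there and 0 elsewhere. The 9 genes of the T cell list summed to 95.1 and 117 CPM under vehicle and 172 and 107 CPM under DCA, most of it Cd28. Of its other genes, Cd3g stood at 11.9 and 25.6 CPM under vehicle and 21.3 and 10.5 CPM under DCA, and Cd247 at 13.1 and 0 against 0.588 and 7.95 CPM. Lower levels were seen for Cd3e, at 1.91 and 0 against 0 and 0.345 CPM, and Cd3d, at 0.711 and 0 against 0.371 and 0.416 CPM. Cd5 and Cd8b1 were found in vehicle replicate 2 alone, at 1.07 and 0.0764 CPM, while Cd4 and Cd8a were at 0 in all 4 libraries.

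These 6 granzyme genes lie at 2 places in the mouse genome (GRCm38, RefSeq). Gzmb spans chr14:56258836-56262334 on the minus strand, next to Gzmc (chr14:56231397-56241647), Gzmf (chr14:56205263-56211407), Gzmd (chr14:56129556-56132603) and Gzme (chr14:56117619-56120625), all on the same strand. Gzma lies on the minus strand of another chromosome, at chr13:113093824-113100981. Serpinb9 is on that chromosome too (chr13:32997061-33017955, plus strand). Prf1 (chr10:61297751-61304684, plus strand) and Srgn (chr10:62493833-62527445, minus strand) share chromosome 10. In the table the granzymes carry the Entrez identifiers 14938 (Gzma), 14939 (Gzmb), 14940 (Gzmc), 14941 (Gzmd), 14942 (Gzme) and 14943 (Gzmf), followed by 18646 (Prf1), 19073 (Srgn) and 20723 (Serpinb9).

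The promoters of Gzmb and of 2 genes of the same cluster, Gzmc and Gzmd, are shown because Gzmb gave the highest level of the 9 genes, its neighbour Gzmc a low one and Gzmd, farther along, none. Each run is the 200 bases before a RefSeq start site on GRCm38.p6, read 5′ to 3′ on the minus strand (Gzmb chr14:56262335-56262534, Gzmc chr14:56234658-56234857, Gzmd chr14:56132594-56132793). The start sites used for Gzmc and Gzmd lie inside the gene spans given above. Capitals mark the motifs found: an AP-1 site, a cyclic AMP response element (CRE) and Runx sites.
Gzmb: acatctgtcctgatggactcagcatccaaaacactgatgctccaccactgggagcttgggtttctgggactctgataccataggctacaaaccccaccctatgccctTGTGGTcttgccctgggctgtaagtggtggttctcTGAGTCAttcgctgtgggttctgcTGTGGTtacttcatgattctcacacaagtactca
Gzmc: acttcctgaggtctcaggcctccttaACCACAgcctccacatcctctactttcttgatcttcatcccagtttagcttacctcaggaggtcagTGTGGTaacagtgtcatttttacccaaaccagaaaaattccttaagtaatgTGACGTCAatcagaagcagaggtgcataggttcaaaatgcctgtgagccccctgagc
Gzmd: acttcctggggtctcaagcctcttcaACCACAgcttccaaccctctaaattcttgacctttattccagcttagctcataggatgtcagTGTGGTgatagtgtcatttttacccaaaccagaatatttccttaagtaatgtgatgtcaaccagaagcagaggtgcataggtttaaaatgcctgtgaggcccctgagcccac

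The Gzmb window held TGAGTCA, a match to the AP-1 motif TGANTCA, 58 bases before the start site, and Gzmb was the only member of the 9 with it. On either strand, that motif occurred in 5.48% of 32851 mouse promoter windows of the same length. Gzmc held the CRE TGACGTCA at 57 bases, found in 1.47% of promoters, and among the members only Gzmf shared it. The Runx motif TGTGGT, or ACCACA on the other strand, was present in 7 of the 9 members and in 11.2% of promoters. The members at 0 counts had it too, and these windows are partly copies of each other, since Gzmd and Gzme were 94% identical over the window and Gzmc and Gzmd 84.8%. Gzmb matched Gzmc over 48.4% of positions. No member held the GATA motifs AGATAA or TGATAA, the STAT motif TTCNNNGAA or the T-box motif AGGTGTGA in these windows. Other forms of the GATA motif were not searched, and the Gzmd window shown holds TGATAG, which is not marked. The motifs that were searched do not overlap where they were found, and a match in letters is not a bound site.

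Gzmb, which encodes granzyme B, was among the most abundant transcripts of these ILC2s. In vehicle replicates 1 and 2 it gave 487716 and 255323 counts, 1.36% and 0.961% of the library, and ranked 1 among all genes in both. In DCA replicate 1 it gave 181572 counts, 0.566% of the library and rank 6, and in DCA replicate 2 it gave 1986293 counts, 0.814% and rank 2.

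Scaled, Gzmb stood at 13341 and 9757 CPM under vehicle and at 5620 and 8262 CPM under DCA. Both DCA libraries were below both vehicle libraries, although the gap between vehicle replicate 2 and DCA replicate 2 was smaller than the gap within either treatment. The means were 11549 ± 2534 CPM under vehicle and 6941 ± 1868 CPM under DCA (SD, n = 2 each). The log2 fold change was −0.73, and the difference in mean log2(CPM + 1), which is the scale of every standard error given here, was −0.74 with a standard error of 0.36. In edgeR's quasi-likelihood test the unadjusted p was 0.0271, and with Benjamini-Hochberg adjustment over all genes it was 0.999, so the difference did not pass the test. The exact permutation test gave p = 0.333, the smallest value that 2 against 2 libraries allow. In bulk RNA, fewer cells that carry a transcript and less of it per cell cannot be told apart.

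At an adjusted p under 0.05, edgeR called 0 (0%) of the 11184 genes tested. At an unadjusted p under 0.05 it called 478 (4.27%), of which 194 (1.73% of those tested) were lower and 284 (2.54%) higher under DCA. DESeq2 called 126 (1.13%) of the same genes at an adjusted and 784 (7.01%) at an unadjusted p under 0.05. Gzmb had an adjusted p of 0.0696 in DESeq2, with Benjamini-Hochberg adjustment, and missed the threshold there too. Leaving out 1 library moved the 478 to between 120 (without DCA replicate 1) and 1500 (without vehicle replicate 1). By the edgeR p, Gzmb ranked 240 among all genes tested and 34 among the 2140 genes that averaged 100 CPM or more. Over 10 other settings with all libraries kept, its log2 fold change stayed between −0.76 and −0.73, with Benjamini-Hochberg adjusted p between 0.0696 and 1 across edgeR, DESeq2 and limma. Leaving out 1 library at a time moved that fold change between −1.04 (without DCA replicate 2) and −0.49 (without DCA replicate 1).

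**Figure D1:**
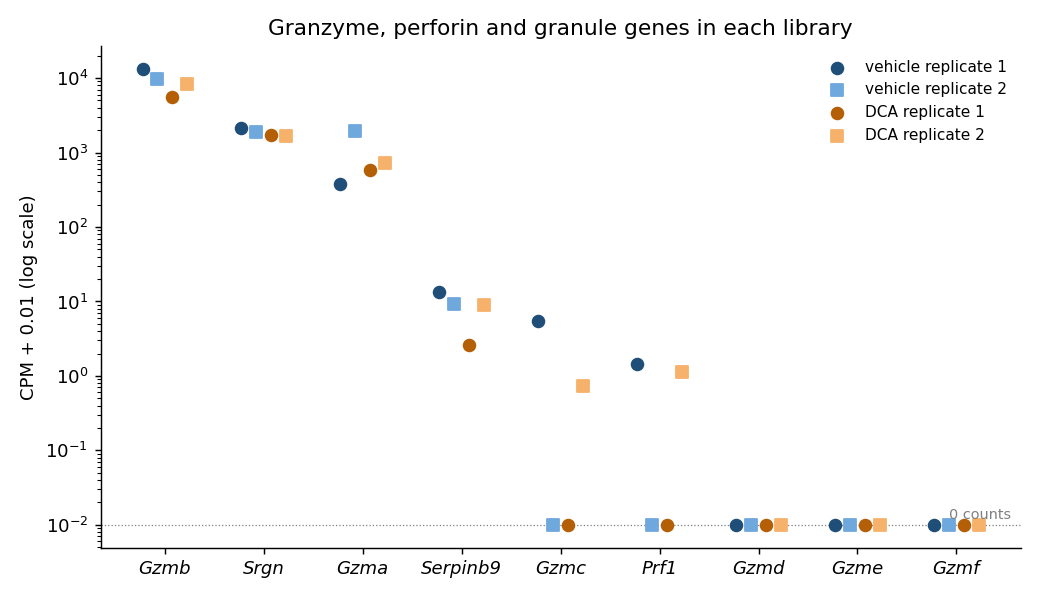
Level of each granzyme and granule gene in each of the 4 libraries, as CPM + 0.01 on a log axis, with circles for replicate 1, squares for replicate 2, blue for vehicle and orange for DCA. Gzmb, Srgn and Gzma lie at 374 CPM or more in every library, Serpinb9 between 2.63 and 13.5 CPM, and Gzmd, Gzme and Gzmf at 0 counts.

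Gzma, which encodes the tryptase granzyme A, varied more within the vehicle group than between treatments. Vehicle replicates gave 374 and 1935 CPM, in the order 1 and 2, and DCA replicates gave 584 and 730 CPM. Vehicle replicate 2 was the highest and vehicle replicate 1 the lowest, with both DCA libraries between them. The vehicle libraries differed 5.17-fold and the DCA libraries 1.25-fold. Of the 2140 genes that averaged 100 CPM or more, 2 had a ratio between the vehicle libraries as large as that, Gzma included. The means were 1155 ± 1104 CPM under vehicle and 657 ± 103 CPM under DCA (SD, n = 2 each), a log2 fold change of −0.81. On the log2(CPM + 1) scale, where each library weighs the same, the difference was −0.38 with a standard error of 1.19. The edgeR quasi-likelihood p was 0.272 unadjusted and 0.999 with Benjamini-Hochberg adjustment, and with no filter on low genes it was 0.00547 and 0.526. Without vehicle replicate 2 the direction turned, to a log2 fold change of 0.81.

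The 2 main granzymes differed in proportion from library to library. Gzma made up 2.73% of all granzyme counts in vehicle replicate 1 (95% exact binomial interval 2.68% to 2.77%) and 16.6% in vehicle replicate 2 (16.4% to 16.7%). In DCA replicate 1 its share was 9.42% (9.29% to 9.55%), and in DCA replicate 2 it was 8.12% (8.08% to 8.15%). The vehicle libraries held both the lowest and the highest share, so the treatments overlapped. These intervals cover counting error only, and the gap between the vehicle libraries is far wider. Expressed per 100 Gzmb counts, Gzma gave 2.81 and 19.8 counts under vehicle and 10.4 and 8.84 under DCA. All granzymes together took 1.40% and 1.15% of the counts under vehicle and 0.624% and 0.885% under DCA, with both DCA libraries lower, a total that is mostly Gzmb.

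**Figure D2:**
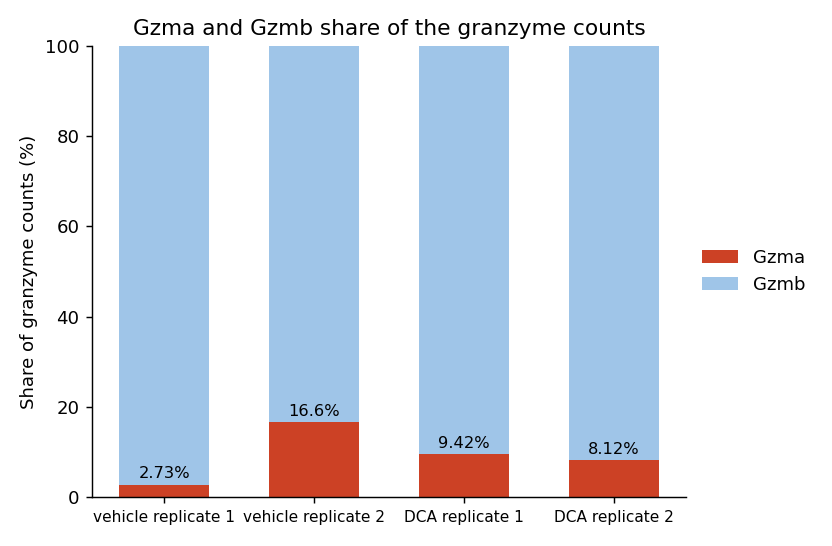
Share of Gzma (red) and Gzmb (blue) in the summed counts of the 10 granzyme genes of each library, in percent, with the Gzma share printed above its bar. Gzma takes 2.73% and 16.6% in the vehicle libraries, and both DCA libraries fall between them.

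Gzmc, the gene next to Gzmb, was detected in 1 library of each treatment. Vehicle replicate 1 held 197 counts and DCA replicate 2 held 171, or 5.39 and 0.711 CPM, while vehicle replicate 2 and DCA replicate 1 held 0. No count in a library allows for at most 3, or 0.115 CPM in vehicle replicate 2 and 0.0929 CPM in DCA replicate 1, so the level of either positive library would have been seen there. Gzmc passed the filter through vehicle replicate 1 alone. Its edgeR log2 fold change was −2.89, its quasi-likelihood p was 0.410 unadjusted and 0.999 with Benjamini-Hochberg adjustment, and the fold change turned to 8.18 without vehicle replicate 1, where the vehicle side was at 0 and the fitted value is no bound.

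Gzmd, Gzme and Gzmf, the granzymes that lie farther along the cluster, had 0 counts in all 4 libraries. In DCA replicate 2, the deepest library, a count of 0 allows up to 0.0125 CPM, and in vehicle replicate 2, the shallowest, up to 0.115 CPM. Gzmd, Gzme, Gzmf and their relatives Gzmg and Gzmn are close copies: over the 10 pairs among these 5 genes the coding sequences were 79.8% to 93.3% identical, with shared runs of 46 to 101 bases. How reads that match more than 1 copy were counted is not given in the sources used here. A 0 for 1 of these genes is therefore less certain than for a gene without close copies. Per the methods, full-length reads are longer than these shared runs, but trimmed reads may be shorter. Gzmb shared 76.2% of coding positions and a longest run of 49 bases with Gzmc, and 54.6% and 11 bases with Gzma.

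The contrast between Gzmb and its neighbours held along the whole cluster. The centre of Gzmc is 24.1 kb from that of Gzmb, Gzmf 52.3 kb, Gzmd 130 kb and Gzme 141 kb. Of the 16 genes of the table from Gzmc to the chymase Cma1, 10 had 0 counts in every library, and the highest value of any of them was the 5.39 CPM of Gzmc. Of 7 listed proteases of mast cells, basophils and neutrophils in this stretch, 4 were at 0 throughout and 1 was tested. This was the basophil protease Mcpt8, at 3.50 and 4.62 CPM under vehicle and 4.52 and 0 CPM under DCA, with an edgeR log2 fold change of −0.85 and an unadjusted p of 0.757. Ctsg, the neutrophil protease cathepsin G, was at 1.86 CPM in vehicle replicate 1 and 0 elsewhere, and the mast cell protease Mcpt4 was at 0.0291 CPM in DCA replicate 2 and 0 elsewhere. Beside Gzma, the granzyme gene Gzmk, 78.9 kb away, had 0 counts in every library. None of the other 4 granzyme genes of the table passed the filter: Gzmm gave 23 and 5 counts under vehicle and 0 under DCA, Gzmn gave 1 count in vehicle replicate 2, and Gzmg and Gzmk gave 0.

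**Figure D3:**
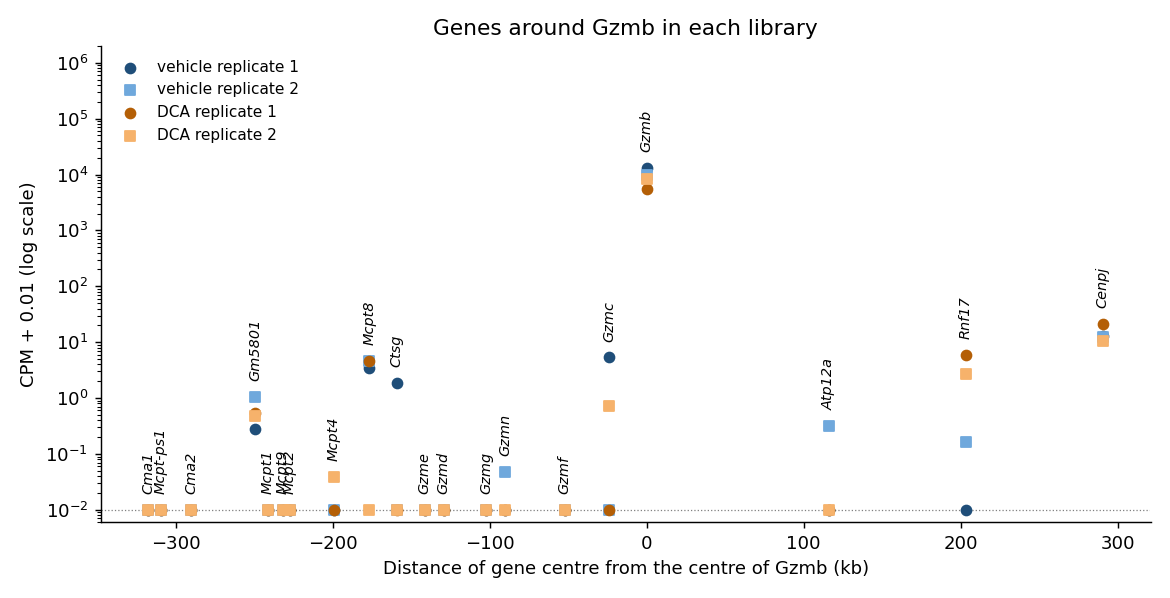
Level of each gene around Gzmb in the 4 libraries, as CPM + 0.01 on a log axis, against the distance of the gene's centre from that of Gzmb in kb, with negative distances toward lower coordinates. Gzmb stands between 5620 and 13341 CPM, and the granzyme and chymase genes on its lower side at 5.39 CPM or less.

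Prf1, the perforin gene, was low or not detected. It gave 52 counts in vehicle replicate 1 (95% exact Poisson interval 38.8 to 68.2) and 272 in DCA replicate 2 (241 to 306), which is 1.42 and 1.13 CPM, and 0 counts in vehicle replicate 2 and DCA replicate 1. The same 2 libraries had Gzmc counts. Markers of several cell types were also found in these 2 libraries alone. In the order vehicle replicate 1 and DCA replicate 2, the T cell gene Cd3e stood at 1.91 and 0.345 CPM. The T-box factor gene Tbx21 stood at 0.383 and 0.0166 CPM, and the macrophage marker Adgre1 at 0.219 and 0.0416 CPM. DCA replicate 2 alone also held Nkg7, a granule membrane protein gene, at 1.78 CPM and the NK cell marker Cd160 at 2.78 CPM. Whether these counts share a source was not tested. With a mean of 0.638 CPM, Prf1 was below the filter and was not tested, and the exact permutation test gave p = 1. The 52 and 272 Prf1 counts stood beside 487716 and 1986293 Gzmb counts in these libraries.

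Srgn, the proteoglycan that packs granzymes into the granule, was abundant and steady. It stood at 2134 and 1863 CPM under vehicle and at 1697 and 1664 CPM under DCA. Both DCA libraries were below both vehicle libraries, and they lay closer to each other than the vehicle libraries did. The means were 1999 ± 192 CPM and 1681 ± 23.3 CPM (SD, n = 2 each), a log2 fold change of −0.25 and a difference of −0.25 on the log2(CPM + 1) scale, with a standard error of 0.099. The difference did not pass the test, with an edgeR quasi-likelihood p of 0.226 unadjusted and 0.999 with Benjamini-Hochberg adjustment.

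Serpinb9, the inhibitor of granzyme B, was low. It gave 13.5 and 9.13 CPM under vehicle and 2.63 and 9.04 CPM under DCA, and DCA replicate 1 was well below the other 3 libraries. The treatments did not overlap, but vehicle replicate 2 (239 counts, 95% exact Poisson interval 210 to 271) and DCA replicate 2 were nearly equal. The means were 11.3 ± 3.10 CPM and 5.83 ± 4.53 CPM (SD, n = 2 each), a log2 fold change of −0.95 and a difference of −1.01 on the log2(CPM + 1) scale with a standard error of 0.78, and the edgeR quasi-likelihood p was 0.347 unadjusted and 0.999 with Benjamini-Hochberg adjustment. Without DCA replicate 1 the log2 fold change was −0.33.

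Of the 5 members that passed the filter, 3 had both DCA libraries below both vehicle libraries (Gzmb, Srgn and Serpinb9). This pattern was found in 14.7% of all genes tested, and none of the 5 had both above. The log2 fold change was below 0 for the 5 genes that passed the filter, as it was for 49.3% of all genes tested. Gzmc passed through 1 vehicle library alone, so the 5 cannot be read as a common direction. The median over all genes tested was 0.0080.

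**Figure D4:**
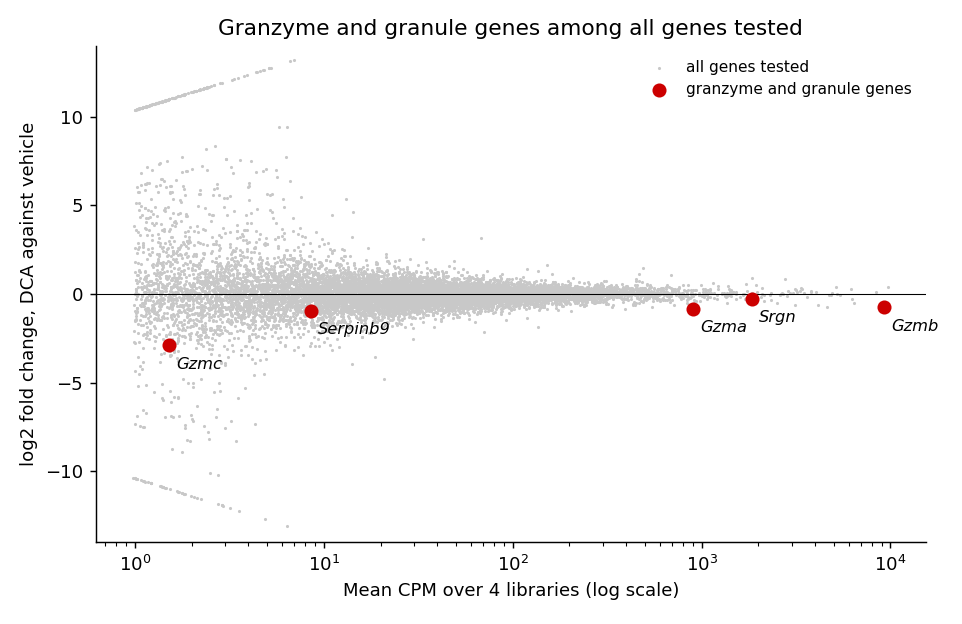
Log2 fold change of DCA against vehicle for every gene tested (grey) and for the 5 granzyme and granule genes that passed the filter (red), against the mean CPM of the 4 libraries on a log axis. Gzmb lies at the right edge at −0.73 and Srgn at −0.25, while the sloping lines of grey points at the top and bottom are genes with 0 counts throughout 1 treatment, whose fitted values depend on the prior count.

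Markers of other cell types were compared beside these levels. The macrophage, monocyte and neutrophil list summed to 24.7 and 23.998 CPM under vehicle and 7.31 and 10.2 CPM under DCA. Nearly all of it was Cd68, a lysosomal membrane protein. It was lower in both DCA libraries, as Gzmb and 14.7% of all genes tested were. Csf1r, Cd14, S100a8 and Elane had 0 counts in every library, 7 of the 11 genes of the list in all. The mast cell and basophil list summed to 365 and 288 CPM under vehicle and 302 and 159 CPM under DCA, nearly all of it Kit, with Fcer1a, Ms4a2 and Tpsb2 at 0 and 7 of 12 genes at 0 in all. The mast cell tryptase Tpsab1 was at 2.52 and 4.59 CPM under vehicle and 0 under DCA, and passed the filter through its vehicle libraries alone. The B cell list summed to 37.8 to 55.2 CPM, nearly all Cd79b, the epithelial list to 8.29 to 14.3 CPM, and the ILC3 list to 1.49 CPM in DCA replicate 1 and 0 elsewhere. Of the 12 ILC2 markers, 2 were lower and 1 higher at an unadjusted edgeR p under 0.05, a threshold met by 4.27% of all genes tested. The lower ones were Il1rl1, the IL-33 receptor, with p of 0.0229, and Klrg1, which had been used for the sort, with 0.0154. Il2ra was higher with 0.0459. Libraries did not overlap for 3 lower and 3 higher markers, against 33.3% of all genes tested in either direction. This adds Areg, lower (edgeR p 0.0868), and Il5 (0.0603) and Il7r (0.0531), higher. The part of any of these in the granzyme values was not tested.

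Compared per length, as CPM per kilobase of the longest annotated transcript, the order of levels was led by Gzmb at 6438 ± 2244 (SD over 4 libraries, range 3914 to 9290). Srgn followed at 1065 ± 124 (964 to 1236) and did not overlap with it. Gzma came next at 910 ± 704 (376 to 1943), and its range enclosed that of Srgn, so these neighbours did not differ beyond their spread. Below a clear gap stood Serpinb9 at 2.47 ± 1.29, Gzmc at 1.71 ± 2.91 and Prf1 at 0.258 ± 0.302, whose ranges overlapped from each to the next, and Gzmd, Gzme and Gzmf closed the order at 0. With the shortest transcript in place of the longest, Srgn came to 5317 (4809 to 6168), since its transcripts run from 346 to 1727 bases. Its mean still stood between Gzmb and Gzma, but its range then lay within that of Gzmb and above that of Gzma (426 to 2204), so which neighbours overlap depends on the transcript taken.

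The genes whose pattern over the 4 libraries was most like that of Gzmb were sought by the smallest distance between centred log2(CPM + 1) profiles. Among 6904 candidates these were Wipf1, which binds the Wiskott-Aldrich syndrome protein, at a distance of 0.0601, the lysosomal chloride transporter Clcn7 at 0.0882 and the cohesin acetyltransferase Esco2 at 0.0979. Wipf1, for example, stood at 77.6 and 58.2 CPM under vehicle and 31.5 and 46.5 CPM under DCA. For Srgn, among 10881 candidates, they were Abhd17b at 0.0168, the cardiolipin synthase Crls1 at 0.0266 and the ubiquitin-conjugating enzyme Ube2j1 at 0.0553. With 4 points a profile, many genes can come close.

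Granzymes need other genes to be made active, packed and released. Such genes, with other granzymes, chymase-locus proteases, serpins and transcription factors, made up 97 genes in 8 lists compared with the members. Of the 72 that were tested, 1 was higher and 1 lower under DCA at an unadjusted edgeR p under 0.05, which is 2.78% against 4.27% of all genes tested. DESeq2 gave 4 such genes, and edgeR between 1 (without DCA replicate 2) and 9 (without vehicle replicate 1) when a library was left out. The median log2 fold change of the 72 was 0.03. Vehicle and DCA libraries were fully separated for 18 of the 72 (25%), against 33.3% of all genes tested.

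Ctsc, cathepsin C, removes the propeptide that keeps granzymes inactive. It stood at 201 and 210 CPM under vehicle and at 186 and 200 CPM under DCA, a log2 fold change of −0.09. Both DCA libraries were slightly lower, a pattern of 14.7% of all genes tested, with an unadjusted edgeR p of 0.684. The value is given although Ctsc was picked outside the rule for naming genes. In its list of 13 granule proteases and membrane proteins, 11 were tested, 8 had a higher and 3 a lower mean under DCA, 0 had an unadjusted p under 0.05, and the median was 0.08 (−0.02 if DCA replicate 1 was left out, 0.29 if DCA replicate 2 was). The most abundant were the aspartic protease Ctsd (2353, 1330, 1793 and 1397 CPM, in the order vehicle replicates 1 and 2, DCA replicates 1 and 2), the cysteine protease Ctsb (466, 431, 548 and 438 CPM) and Cst7, the cystatin that inhibits cathepsin C (430, 443, 450 and 467 CPM). Cst7 was slightly higher in both DCA libraries, while Ctsd and Ctsb overlapped.

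Of the 22 genes of granule transport and release, 20 were tested, and 9 had a higher and 11 a lower mean, with 0 at an unadjusted edgeR p under 0.05 and a median of −0.05 (0.05 without vehicle replicate 2 and 0.01 without vehicle replicate 1). Coro1a, an actin regulator, was the most abundant at 1285 and 1584 CPM under vehicle and 1515 and 1202 CPM under DCA, followed by the membrane fusion proteins Vti1b (193, 250, 219 and 189 CPM) and Vamp8 (171, 204, 167 and 251 CPM). All 3 overlapped between treatments.

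Of the 9 intracellular serpins, relatives of Serpinb9, 5 were tested, and 3 had a higher and 2 a lower mean, with 0 at an unadjusted edgeR p under 0.05. Serpinb6a, an inhibitor of cathepsin G, was by far the most abundant at 172 and 204 CPM under vehicle and 170 and 207 CPM under DCA. Serpinb1a (7.74, 0.955, 17.8 and 0 CPM) and Serpina3g (0, 5.54, 3.59 and 0 CPM) were patchy, present in libraries of both treatments and missing from others. The list median was 0.0042 over 5 mostly low genes and ran from −4.12 without DCA replicate 1 to 6.66 without vehicle replicate 2, so it gives no direction.

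The sugar chains of serglycin are built by a series of transferases. Of 19 such genes, 16 were tested, 11 with a higher and 5 with a lower mean under DCA and a median of 0.26 (0.0068 without vehicle replicate 2 and 0.52 without vehicle replicate 1). Csgalnact1, which starts the chondroitin sulfate chain, gave 0.957 and 4.09 CPM under vehicle and 20.9 and 16.3 CPM under DCA. Both DCA libraries were higher, with a log2 fold change of 2.89, a difference of 2.63 ± 0.71 (standard error) on the log2(CPM + 1) scale and an edgeR quasi-likelihood p of 0.0221 unadjusted and 0.999 with Benjamini-Hochberg adjustment. The more abundant Chst12, a chondroitin sulfotransferase (88.9, 88.6, 153 and 108 CPM), had both DCA libraries higher with an unadjusted edgeR p of 0.0920, while the heparan sulfate polymerase Ext2 (105, 68.4, 112 and 85.1 CPM) and the chondroitin-polymerizing factor Chpf2 (82.0, 37.0, 62.4 and 32.3 CPM) overlapped.

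Granzymes can reach the granule through the mannose 6-phosphate tag. The list of 6 genes, all tested, includes Sort1, a sorting receptor that does not depend on the tag. Sort1 gave 0.164 and 0 CPM under vehicle and 5.39 and 1.41 CPM under DCA. In the list, 4 genes had a higher and 2 a lower mean, with a median of 0.26. That median turned to −0.07 if vehicle replicate 1 was left out and to −0.09 if DCA replicate 1 was, and came to 0.51 without DCA replicate 2. Gnptab, a subunit of the enzyme that adds the tag, stood at 25.1 and 38.3 CPM under vehicle and at 13.1 and 11.5 CPM under DCA. Both DCA libraries were lower, with a log2 fold change of −1.36, a difference of −1.27 ± 0.31 (standard error) on the log2(CPM + 1) scale and an edgeR quasi-likelihood p of 0.0325 unadjusted and 0.999 with Benjamini-Hochberg adjustment. The receptor M6pr gave 515 and 570 CPM under vehicle and 467 and 313 CPM under DCA, lower in both DCA libraries with an unadjusted edgeR p of 0.115. Gnptg, the other subunit of that enzyme (80.1, 96.8, 129 and 89.5 CPM), and Nagpa, which uncovers the tag (19.1, 42.5, 42.8 and 28.6 CPM), overlapped.

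Of 17 transcription factors of cytotoxic lymphocytes, 16 were in the table and 13 were tested, 4 with a higher and 9 with a lower mean under DCA, 0 at an unadjusted edgeR p under 0.05 and a median of −0.19, which turned to 0.19 without vehicle replicate 1 and was −0.35 without vehicle replicate 2. Id2, a factor that innate lymphoid cells require, was steady at 2964 and 2814 CPM under vehicle and 2932 and 3105 CPM under DCA. Runx3 (85.5, 58.8, 65.1 and 69.1 CPM) overlapped between treatments. Prdm1, which encodes Blimp-1, had both DCA libraries lower (99.7, 60.5, 57.0 and 36.1 CPM) with an unadjusted edgeR p of 0.0943. Tbx21 and Eomes, the T-box factors of NK cells and ILC1s, gave at most 0.383 and 0.0250 CPM in any library.

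**Figure D5:**
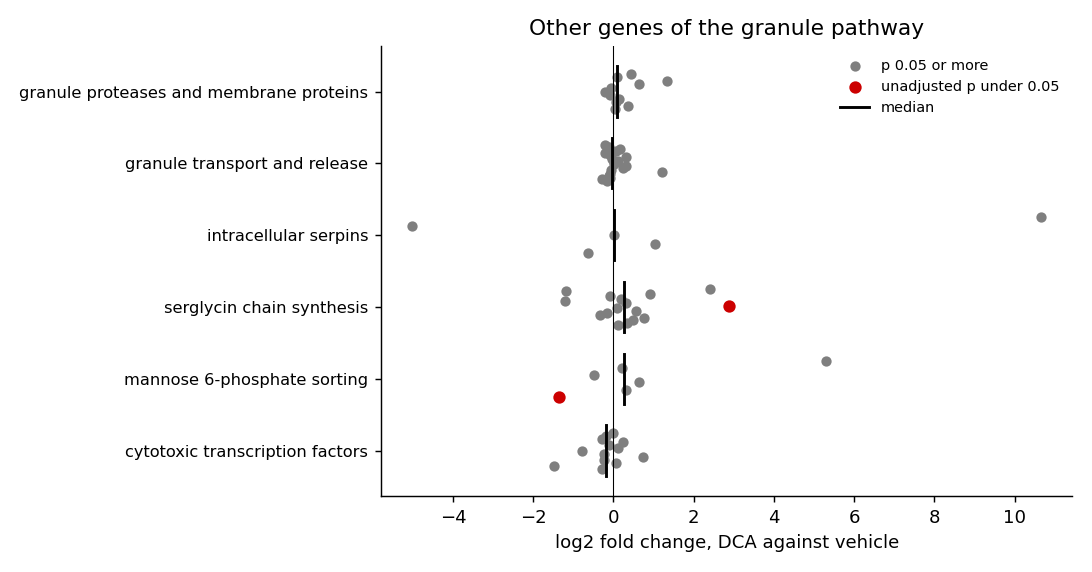
Log2 fold change of DCA against vehicle for each tested gene of 6 lists of the granule pathway, with grey points for genes with an unadjusted edgeR p of 0.05 or more, red points for those under 0.05, and a black bar at each list's median. The red points are Csgalnact1 at 2.89 and Gnptab at −1.36, and the list medians, 5 of which change sign when some library is left out, lie between −0.19 and 0.26. The points at the far left and far right are low genes at or near 0 counts in libraries of 1 treatment, so their fitted values are no measure of size.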

How the data were processed

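RNA-Seq of cultured large intestinal ILC2s (2 vehicle and 2 DCA libraries) was read from a table of whole-number counts per gene. The authors made full-length cDNA with SMART-Seq HT and Nextera XT libraries, trimmed the read pairs (cutadapt 1.9) and mapped these on mm10 (HISAT2 2.2.1), per the labels and methods. They deposited the counts under a name that refers to FPKM. The counting tool, its annotation and its strand setting are not given in the sources used here, so close copies and overlapping genes are uncertain. More genes had 2 counts than 1 (484 against 253 in vehicle replicate 1), as when both mates are counted, which would make Poisson and binomial intervals too narrow. The 1275 rows without a symbol (0.137% to 0.173% of counts) were kept under their identifiers.

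Genes that averaged 1 CPM or more (11184) were tested with edgeR 4.0.16 in R 4.3.3 (TMM, quasi-likelihood, two-sided, Benjamini-Hochberg over all genes). The standard error is that of the difference in mean log2(CPM + 1). DESeq2 1.42.0, which the methods name, limma 3.58.1, other scalings and filters, a replicate block, thinned counts and leaving out each library were alternatives. The edgeR fit was run on simulated counts with known changes, where their recovery was required only at a small fixed spread. At the spread estimated from these data, only the right direction of called changes was required. Positions and promoters came from RefSeq (GRCm38.p6, 25275 identifiers matched) and transcript lengths and coding sequences from GENCODE M21. Protein sequences were planned for the identity comparison, and coding sequences were aligned in their place, an alternative added after seeing the data, as was Gzma per 100 Gzmb counts. The members, lists and tests were chosen with earlier results of these data known. Named genes were all members and, from each list of granule genes, those with an unadjusted p under 0.05 and the 3 with the highest mean CPM. Cell type markers, Ctsc, Nkg7, Sort1, Tbx21 and Eomes were named outside this rule, after their values were seen. Same-numbered libraries of the treatments did not deviate together (correlation 0.0197), so the numbers were not used as pairs.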

Additional observations from a re-analysis of the deposited data

How the results depend on the processing

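With all libraries kept, Gzmb, Gzma, Gzmc, Srgn and Serpinb9 kept the direction of their log2 fold change and an adjusted p over 0.05 under each alternative that gave a value. Gzmc gave none with a mean of at least 5 CPM. Leave-one-out values ran from −1.04 to −0.49 for Gzmb, −1.59 to 0.81 for Gzma (0.81 without vehicle replicate 2), −9.42 to 8.18 for Gzmc (8.18 without vehicle replicate 1), −0.34 to −0.18 for Srgn and −2.10 to −0.33 for Serpinb9. They leave 1 treatment with a lone library, which is assumed to vary like the others. Genes with an adjusted p under 0.05 numbered 0, but 36 with no filter, 126 in DESeq2 and 0 to 28 leaving out 1 library. Those with an unadjusted p under 0.05 numbered 478, but 847 with no filter, 784 in DESeq2 and 120 to 1500 leaving out 1 library (1500 without vehicle replicate 1, 1231 without vehicle replicate 2, 120 without DCA replicate 1, 286 without DCA replicate 2). In the granule lists the number was 2, but 5 with no filter, 4 in DESeq2 and 1 to 9 leaving out 1 library (9 without vehicle replicate 1, 6 without vehicle replicate 2, 1 without DCA replicate 2). Of the 6 list medians, those of granule proteases, granule transport, serpins, mannose 6-phosphate sorting and transcription factors changed sign with some library left out. The cause was not tested.

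The replicate numbers share only a label (correlation 0.0197). With the replicate block, 450 genes had an unadjusted and 0 an adjusted edgeR p under 0.05, and the log2 fold changes were −0.74 for Gzmb, −0.38 for Gzma, −1.60 for Gzmc, −0.25 for Srgn and −1.18 for Serpinb9. Thinning DCA replicate 2 to 31501109 counts gave −0.74 for Gzmb. For genes with no count, the depth sets the limit given beside them.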
